A study of Saccharomyces cerevisiae W303 with 24 samples.

Results

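The large-subunit ribosomal protein genes were taken as every gene whose symbol is RPL followed by a number, together with *RPP0*, *RPP1A*, *RPP1B*, *RPP2A* and *RPP2B*, which encode the stalk of the same subunit. By this rule 80 of the 6176 nuclear open reading frames on the arrays were members (1 further name, *RPL20A*, was not analysed here). Of these, 11 were single-copy genes (*RPL3*, *RPL5*, *RPL10*, *RPL25*, *RPL28*, *RPL29*, *RPL30*, *RPL32*, *RPL38*, *RPL39* and *RPP0*), 68 formed 34 pairs of paralogs (an A and a B copy of nearly the same protein) and *RPL20B* was measured without its partner. The symbols chose the members and no measured value was used.

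The large subunit holds the peptidyl transferase centre, where ribosomal RNA joins amino acids into a chain, and the tunnel through which the chain leaves. Its proteins are made in the cytoplasm, imported into the nucleolus and nucleus, and placed on ribosomal RNA in a set order, and unassembled ribosomal proteins are known to be unstable and prone to aggregate. In budding yeast these genes are among the most strongly transcribed, they are controlled together by factors such as Rap1, Fhl1, Ifh1 and Sfp1, and several are known to lower the output of their own transcript when their protein is in excess. An extra chromosome gives a cell an additional copy of some of them and not of the others.

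Each strain was a W303 haploid, and each was measured on a single dual-colour array against RNA of a reference labelled wild-type. The disomes-*ubp6Δ* (12 strains) carried an extra copy of chromosome I, II, V or any one of VIII to XVI and lacked *UBP6*, the gene of a proteasome-associated deubiquitinating enzyme, and the disomes (12 strains) carried the same extra chromosomes with *UBP6* intact. All 24 strains kept the extra chromosome through a *HIS3* and a *KanMX* marker under selection and were then grown for a few generations in rich medium (YEPD). The strains are the replicates for what an extra chromosome does in general, a single chromosome has 1 array in each genotype, and no label names separate cultures, so p-values measure the spread between these arrays.

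All values are log2 ratios of strain over reference. The deposited Cy5 over Cy3 ratios of the 12 disomes-*ubp6Δ* arrays ran opposite to the labels and their sign was turned. This put the duplicated genes other than the members at medians of 0.54 to 0.95 there, beside 0.77 to 0.99 in the disomes. *UBP6* had processed signals of 24.2 to 265 in the strains and 12.9 to 56.6 in the reference on the disomes-*ubp6Δ* arrays, and 1215 to 3920 in the strains and 1817 to 4462 in the reference on the disome arrays. The reference labelled wild-type was thus low in *UBP6* on the disomes-*ubp6Δ* arrays, like the mutants, and a value of the disomes-*ubp6Δ* is a ratio to that reference. The strains stood in 1 dye in one genotype and in the other dye in the other, so a gene-specific dye effect cannot be told apart from a shift common to a genotype.

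Every one of the 3840 member spots was well above background in both dyes, 227 were outliers and all of these lay on the first slide, and 3 were saturated (1 of *RPL16A* and 2 of *RPL16B*). After outliers were removed, 35 of 1920 values were missing and 59 members had a value on every array. The arrays were not alike. Disomes I to XI, 7 arrays of the first slide, correlated with each other over the members at r = 0.93 to 0.97, but at −0.15 to −0.06 with disome XII on the same slide, at −0.23 to 0.20 with disomes XIII to XV and at 0.23 to 0.29 with disome XVI. Over all genes the median correlation was 0.75 among these 7 arrays. It was 0.20 with disome XII, 0.22 with disomes XIII to XV and 0.32 with disome XVI. Among the disomes-*ubp6Δ*, strains I to VIII (1 slide) correlated over the members at 0.70 to 0.91 and strains IX to XVI (another slide) at 0.17 to 0.91. The medians over all genes were 0.61 and 0.49. Several results are therefore given with and without disomes I to XI, an alternative chosen after seeing the data. The heat map shows the values.

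**Figure D1:**
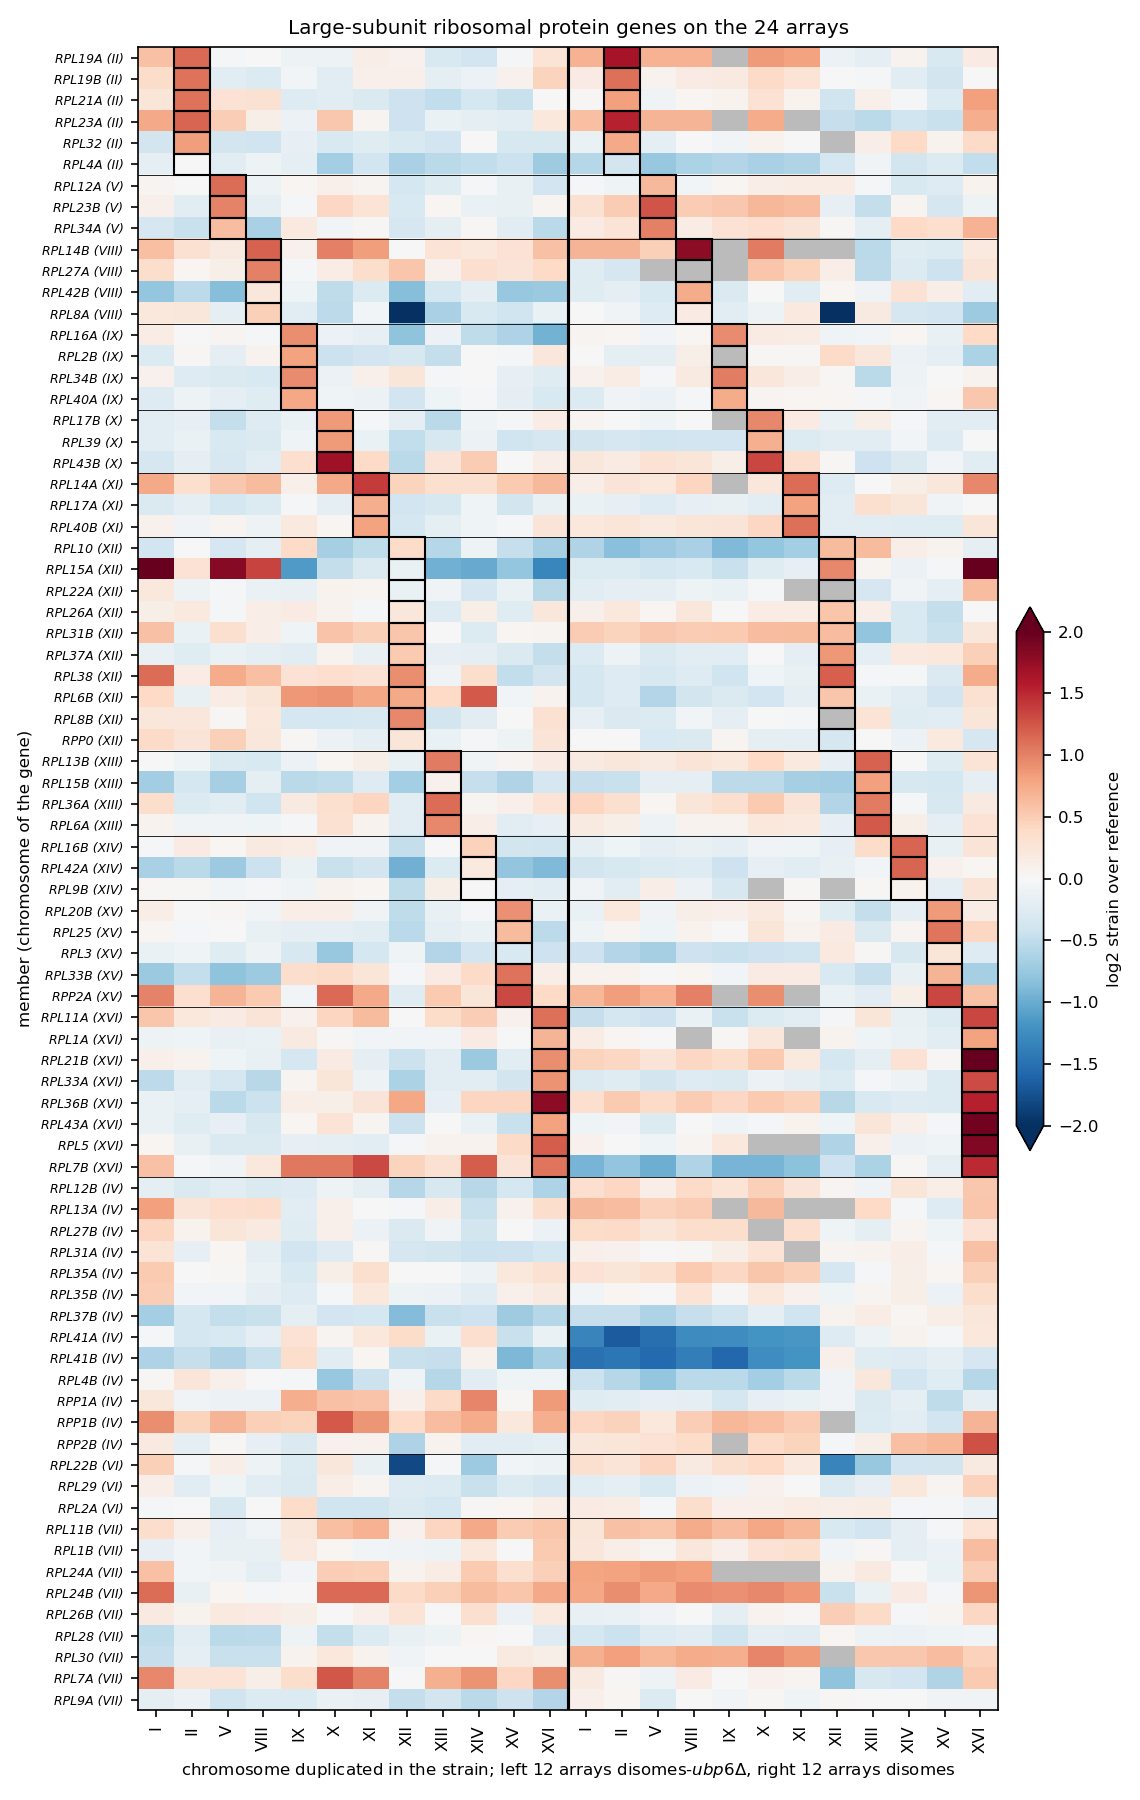
Log2 strain over reference of 78 of the 80 members (lines, ordered by chromosome) on the 24 arrays (columns, disomes-*ubp6Δ* left and disomes right), with black frames where the gene itself is duplicated and grey where the value is missing. The frames follow the diagonal and are mostly red. Dark blue cells outside the frames mark *RPL8A* and *RPL22B* in strains with an extra chromosome XII and *RPL41A* and *RPL41B* in disomes I to XI.

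The first question was how the mRNA of a member followed its own gene copy. Of the 80 members 55 lay on a chromosome that was duplicated in some strain (10 on XII, 8 on XVI, 6 each on II and XV, 4 each on VIII, IX, XIII and XIV, 3 each on V, X and XI and 0 on I), and 25 lay on chromosomes IV, VI and VII, which no strain carried in excess. The copy response of a member is the log2 ratio in its own disome-*ubp6Δ* and disome over the other strains of the same genotype, so that 1 is the value at which mRNA follows gene copy. Its median over the 55 members was 0.93 (all 4282 duplicated genes: 0.91), and the middle 50% lay between 0.78 and 1.06. By limma's test (called where the adjusted p was under 0.05 over all duplicated genes) 45 of the 55 were higher in their own strains and 0 were lower, with 79.5% of all duplicated genes called (79.4% higher and 0.163% lower). In their own strain, the 55 measured members had a median log2 ratio of 0.85 in the disomes-*ubp6Δ* and the 51 measured ones 0.97 in the disomes. The other duplicated genes had array medians of 0.54 to 0.95 and of 0.77 to 0.99.

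Against 1, 6 of the 55 members (10.9%) were called and all 6 had a lower response (*RPP0*, *RPL22A*, *RPL9B*, *RPL4A*, *RPL3* and *RPL26A*), with 3.48% of all duplicated genes called (2.80% lower and 0.677% higher). The members' share was not above that of all genes with another background correction and loess normalization of the raw signals. There 8 of 55 were called (14.5%, 7 below and 1 above 1), beside 15.9% of all duplicated genes. Below 0.5 lay 10 of the 55 members (18.2%), beside 13.8% of all duplicated genes, and above 1.3 lay 7 (12.7%), beside 10.6%. In 1 genotype alone the extra copy has a single array, so only medians are given here. The median response was 0.86 in the disomes-*ubp6Δ* (all duplicated genes 0.90) and 0.94 in the disomes (all duplicated genes 0.90). Without disomes I to XI 45 members were still called above 0 (44 of them the same) and 3 below 1 (*RPP0*, *RPL3* and *RPL9B*), beside 1.68% of all duplicated genes called different from 1.

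**Figure D2:**
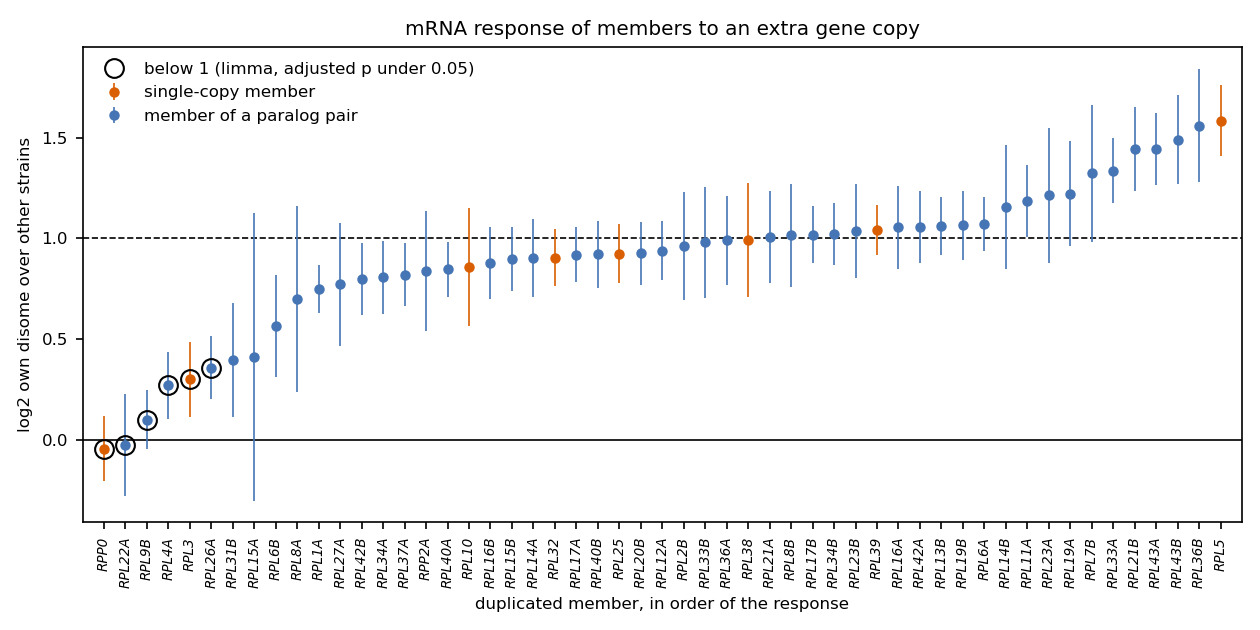
Copy response (log2 own disome over the other strains, ± SE) of 53 of the 55 duplicated members in order of size, with single-copy members in orange, members of pairs in blue and a ring where the response was below 1 by the test. Most members lie near the dashed line at 1, from 0.70 for *RPL8A* to 1.34 for *RPL33A*, while *RPP0* and *RPL22A* lie at −0.04 and −0.03.

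Of the 8 duplicated single-copy genes 6 were called above 0, with a median of 0.91. *RPL5*, whose protein binds the 5S ribosomal RNA and brings it to the subunit, had the highest response of all members. Its log2 ratio was 1.20 in disome-*ubp6Δ* XVI and 1.85 in disome XVI, against −0.29 to 0.38 in the other disomes-*ubp6Δ* and −0.59 to 0.21 in the other disomes, a response of 1.59 ± 0.18 (SE) with adjusted p = 3.61e-07 against 0 and 0.0702 against 1. *RPL39*, whose small protein lines the exit tunnel, responded by 1.04 ± 0.12, *RPL38* by 0.99 ± 0.29, *RPL25*, whose protein is a docking site for the signal recognition particle at the tunnel exit, by 0.92 ± 0.15, *RPL32* by 0.90 ± 0.14 and *RPL10*, whose protein joins the subunit late in the cytoplasm, by 0.86 ± 0.29. These 5 did not pass the test against 1. *RPL5* passed it without the pair of strains XV (1.61, adjusted p = 0.0474) and with the other background correction and loess normalization. In 1 genotype alone *RPL10* was called above 0 in neither (0.68 in the disomes-*ubp6Δ* and 1.04 in the disomes) and *RPL38* was not called in the disomes-*ubp6Δ* (0.67).

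*RPP0* and *RPL3* were the 2 single-copy genes that were not called above 0. *RPP0* encodes the protein at the base of the stalk, which recruits translation factors. Its log2 ratio was 0.24 in disome-*ubp6Δ* XII and −0.33 in disome XII, against −0.18 to 0.48 and −0.33 to 0.19 in the other strains of each genotype. Both own values lay within or at the edge of the range of strains with the usual copy, and the response was −0.04 ± 0.16 (adjusted p = 0.000605 against 1). The 6 nearest measured genes around *RPP0* had a median response of 0.93. *RPL3*, whose protein reaches towards the peptidyl transferase centre, was at −0.30 in disome-*ubp6Δ* XV and 0.24 in disome XV, against −0.75 to −0.08 and −0.67 to 0.20 elsewhere, a response of 0.30 ± 0.18 (adjusted p = 0.0336 against 1, 0.137 against 0). The disome XV value lay above the other disomes and the disome-*ubp6Δ* XV value inside the range of its genotype. Its 6 neighbours had a median response of 1.07.

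Among the members of pairs *RPL22A*, *RPL9B* and *RPL4A* had low responses and were called below 1. *RPL22A*, measured only in disome-*ubp6Δ* XII, was at −0.13 there, against −0.56 to 0.21 in the other disomes-*ubp6Δ*, a response of −0.03 ± 0.25 (adjusted p = 0.0253 against 1). The own value lay inside the range of strains with the usual copy. Its 6 neighbours had a median response of 0.98.

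*RPL9B*, whose protein sits near the stalk base, was at 0.01 in disome-*ubp6Δ* XIV and 0.06 in disome XIV, against −0.51 to 0.12 and −0.32 to 0.25 elsewhere, a response of 0.10 ± 0.15 (adjusted p = 0.000975 against 1), with a median of 0.61 for its neighbours. The 4 members on XIV had a median log2 ratio of 0.31 in disome-*ubp6Δ* XIV, where the other duplicated genes had 0.54, and of 0.75 in disome XIV, where these had 0.87. *RPL4A*, whose long extension lines the exit tunnel, was at 0.01 in disome-*ubp6Δ* II and −0.37 in disome II, against −0.70 to −0.10 and −0.76 to −0.07 elsewhere. The value in disome-*ubp6Δ* II was above all others of its genotype and that in disome II was not. Its response was 0.27 ± 0.16 (adjusted p = 0.0141 against 1) and 0.42 without disomes I to XI (adjusted p = 0.304). *RPL26A* was called both above 0 and below 1, at 0.36 ± 0.16.

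The highest responses lay mostly on chromosome XVI. After *RPL5* came *RPL36B* (1.56 ± 0.28), *RPL43B* on chromosome X (1.49 ± 0.22), *RPL43A* (1.45 ± 0.18) and *RPL21B* (1.44 ± 0.21), and none of these passed the test against 1. *RPL43A* was at 0.81 in disome-*ubp6Δ* XVI and 1.93 in disome XVI, and *RPL21B* at 0.93 and 1.99. The 8 members on XVI had a median of 1.00 in disome-*ubp6Δ* XVI, where the other duplicated genes had 0.89, and of 1.53 in disome XVI, where these had 0.90. The non-duplicated members were also the highest of all disomes on the disome XVI array, with a median of 0.25, beside −0.05 in disome-*ubp6Δ* XVI. In the strains with an extra chromosome XII the 10 members had a median of 0.44 in disome-*ubp6Δ* XII (other duplicated genes 0.89) and the 8 measured ones 0.62 in disome XII (0.79).

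Where both copies of a pair were duplicated, each in its own strains, the copies could be set side by side, although the difference between copies was not tested. In several of these 16 pairs both copies responded near 1. *RPL42A* responded by 1.06 ± 0.18 and *RPL42B* by 0.80 ± 0.18, *RPL17A* by 0.92 ± 0.13 and *RPL17B* by 1.02 ± 0.14 (exit tunnel), *RPL16A* by 1.06 ± 0.21 and *RPL16B* by 0.88 ± 0.18, and *RPL19A* by 1.22 ± 0.26 and *RPL19B* by 1.06 ± 0.17, the last pair both on chromosome II. The ubiquitin fusion genes *RPL40A* and *RPL40B* responded by 0.85 ± 0.14 and 0.92 ± 0.17. Both *RPL43* genes lay well above 1 without passing the test against it (1.45 ± 0.18 and 1.49 ± 0.22). *RPL21B* responded by 1.44 ± 0.21 and *RPL21A* by 1.01 ± 0.23, and *RPL36B* by 1.56 ± 0.28 and *RPL36A* by 0.99 ± 0.22. Other pairs had 1 copy below the rest. *RPL6B* responded by 0.56 ± 0.25 and *RPL6A* by 1.07 ± 0.14, *RPL15A* by 0.41 ± 0.72 and *RPL15B* by 0.90 ± 0.16, and *RPL8A* by 0.70 ± 0.46 and *RPL8B* by 1.01 ± 0.26.

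The next question was whether the other copy of a pair moved when 1 copy was duplicated. In 14 pairs a single copy lay on a duplicated chromosome, in 16 both did and in 4 neither did, and 5 pairs shared a chromosome. This gave 44 cases of an unduplicated copy in strains with an extra paralog. The duplicated copies in these cases had a median response of 0.93 and the unduplicated copies one of 0.05, with 26 of them above 0, 18 below and 31 within 0.3 of it. With limma, adjusted in each strain over all its non-duplicated genes, 3 of 44 were called and all 3 were lower, with 0.658% of all such gene and strain combinations called lower (1.36% either way). At an unadjusted p under 0.05 there were 7. The same 3 were called without disomes I to XI. Probe sequences were not analysed here, so how far near-identical copies share probe signal was not tested. The median of 0.05 in the unduplicated copies pools pairs of unknown identity and cannot decide this for a single pair.

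**Figure D3:**
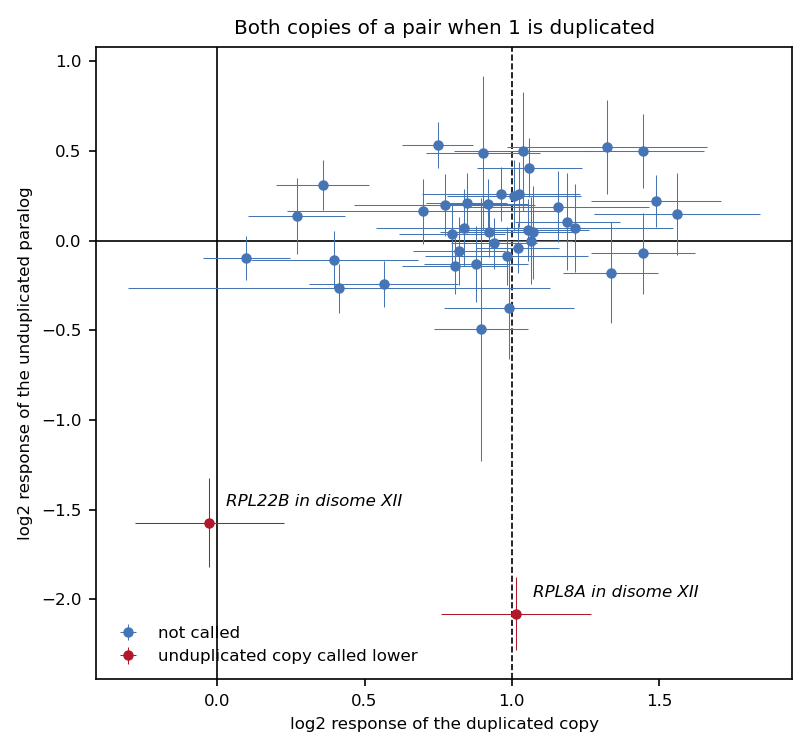
Log2 response of the duplicated copy (x axis) and of its unduplicated paralog in the same strains (y axis) for 42 of the 44 cases, ± SE. Most points lie near 0 on the y axis and near 1 on the x axis, and *RPL8A* and *RPL22B*, called and in red, lie at −2.08 and −1.57.

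*RPL8A*, on chromosome VIII, was low in the strains with an extra chromosome XII, which carries *RPL8B*. It was at −2.17 in disome-*ubp6Δ* XII and −2.36 in disome XII, against −0.65 to 0.22 in the other disomes-*ubp6Δ* and −0.73 to 0.19 in the other disomes, a difference of −2.08 ± 0.20 (SE, 0.236-fold, adjusted p = 1.8e-06). The strain signal of *RPL8A* was 3673 in disome-*ubp6Δ* XII and 2130 in disome XII, against 10291 to 23526 and 4854 to 21786 elsewhere, with the 2 reference signals inside the range of the other arrays. *RPL8B* was measured in disome-*ubp6Δ* XII alone, at 0.96, a response of 1.01 ± 0.26. In the reverse case, strains with an extra VIII, *RPL8B* was at 0.16 ± 0.18 and was not called. The 6 neighbours of *RPL8A* had a median of 0.20 in strains XII.

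*RPL22B*, on chromosome VI, was also low in the strains with an extra chromosome XII, which carries *RPL22A*. Rpl22 is a non-essential protein known to bind the *RPL22B* transcript and inhibit its splicing. *RPL22B* was at −1.81 in disome-*ubp6Δ* XII and −1.32 in disome XII, against −0.72 to 0.47 in the other disomes-*ubp6Δ* and −0.75 to 0.44 in the other disomes, a difference of −1.57 ± 0.25 (SE, 0.336-fold, adjusted p = 0.000284). The groups did not overlap, and the next lowest strains were disome-*ubp6Δ* XIV at −0.72 and disome XIII at −0.75. The strain signal of *RPL22B* was 1859 in disome-*ubp6Δ* XII and 2284 in disome XII, against 3176 to 6649 and 2626 to 5499 elsewhere. The reference signal on the same arrays was 6506 and 5705, against 4632 to 6140 and 2291 to 7128 on the other arrays. *RPL22A* itself was at −0.13 in disome-*ubp6Δ* XII, a response of −0.03 ± 0.25, and had no value in disome XII. The neighbours of *RPL22B* had a median of −0.03. Among all non-duplicated genes of those strains, *RPL8A* had the 6th lowest response of 5316 and *RPL22B* the 26th of 5316. With the disomes alone, from 1 array, *RPL22B* was not called (adjusted p = 0.0625).

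**Figure D4:**
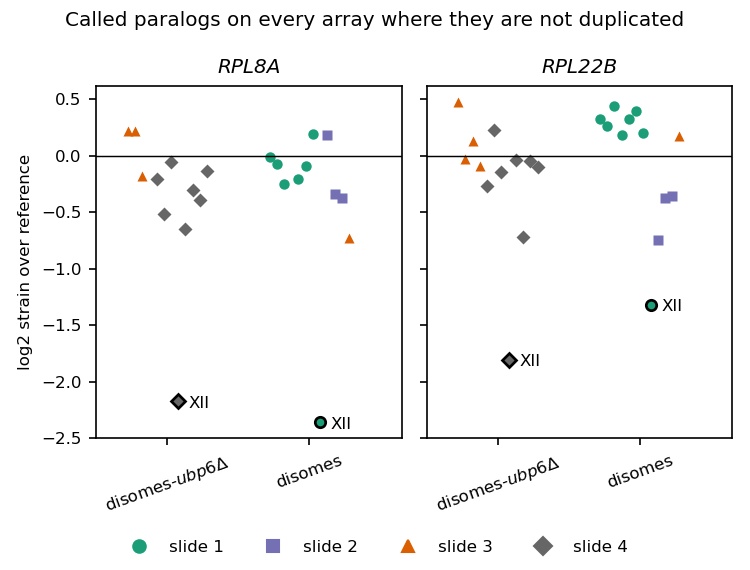
Log2 strain over reference of *RPL8A* and *RPL22B* in each disome-*ubp6Δ* (left) and disome (right) in which the gene is not duplicated, by slide, with a ring on the strains with an extra chromosome XII, which carry an extra paralog. The ringed points, at −2.17 and −2.36 for *RPL8A*, lie below all others in each panel.

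Other unduplicated paralogs had smaller responses. At the low end stood *RPL15A* in strains XIII (−0.49 ± 0.73), and at the high end stood *RPL1B* in strains XVI (0.53 ± 0.13), *RPL7A* in strains XVI (0.52 ± 0.26), *RPL21A* in strains XVI (0.50 ± 0.21), *RPL23A* in strains V (0.50 ± 0.33) and *RPL14B* in strains XI (0.49 ± 0.43, 1 array). None of these was called. Where the duplicated copy was called above 0 (36 cases) the unduplicated copy had a median of 0.07, and where it was not (8 cases) one of −0.19.

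Both copies of a pair often varied alike over the arrays on which neither was duplicated. The correlation between copies had a median of 0.52 over the 34 pairs, from −0.08 (*RPL27*) to 0.93 (*RPL42*), and 5 pairs were above 0.8. For 3126 combinations of members that were not paralogs the median was 0.13. These values share arrays, references and, for near-identical copies, possibly probe signal. In no comparison below were the copies of a pair called in opposite directions. Both were called the same way in 7 pairs in the disomes-*ubp6Δ*, in 4 in the disomes and in 3 in the difference between genotypes.

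The members that were not duplicated were then compared with the reference. In the disomes-*ubp6Δ* 34 of 80 members were called (13 higher and 21 lower), with 35.1% of all 6005 genes called (13.9% higher and 21.2% lower), and the median over the members was −0.07 (all genes −0.04). The share of members called (42.5%) was above that of all genes, as it was with the slide as a random block (13.8%, all genes 9.64%). It was also above it in strains IX to XVI alone (33.8%, all genes 29.0%) but below it in strains I to VIII alone (30.0%, all genes 34.5%). With array medians set to 0 over the genes outside the extra chromosome it was 35.0%, beside 32.8% of all genes. *RPP1B* and *RPP1A* encode acidic proteins of the stalk, which contact elongation factors. *RPP1B* was higher, with lowest 0.21, median 0.65, highest 1.23 and a mean of 0.65 ± 0.08 (SE, n = 12, adjusted p = 0.000147), in 12 of 12 strains. *RPL7A* (lowest 0.00, median 0.56, highest 1.24) was higher by 0.60 ± 0.11 (SE, n = 12, adjusted p = 0.00132) and its paralog *RPL7B* (lowest −0.07, median 0.44, highest 1.32) by 0.58 ± 0.14 (SE, n = 11, adjusted p = 0.00653). *RPL7A* averaged 0.40 in strains I to VIII and 0.69 in strains IX to XVI, and *RPL7B* 0.17 and 0.81. *RPL24B*, which encodes a non-essential protein that joins the subunit late, was higher by 0.50 ± 0.12 (SE, n = 12, adjusted p = 0.00717), and *RPL14A* by 0.49 ± 0.07 (SE, n = 11, adjusted p = 0.000388).

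The lowest members in the disomes-*ubp6Δ* were both *RPL42* genes, whose protein lies at the exit site for tRNA. *RPL42A* (lowest −0.97, median −0.53, highest −0.14) had a mean of −0.57 ± 0.08 (SE, n = 11, adjusted p = 0.000388) and *RPL42B* (lowest −0.86, median −0.53, highest −0.08) one of −0.54 ± 0.09 (SE, n = 11, adjusted p = 0.000642), and each was below 0 in 11 of 11 strains. *RPL37B* was at −0.49 ± 0.06 (SE, n = 12, adjusted p = 0.00016), *RPL15B* at −0.48 ± 0.06 (SE, n = 11, adjusted p = 0.00027) and *RPL4A* at −0.41 ± 0.07 (SE, n = 11, adjusted p = 0.00118), each below 0 in every strain measured. With the slide as a random block 11 of the 34 kept the call, among them *RPP1B*, *RPL7A*, *RPL14A*, *RPL42A*, *RPL42B*, *RPL37B*, *RPL15B* and *RPL4A*, while *RPL7B* (adjusted p = 0.0803) and *RPL24B* (0.109) did not. With array medians set to 0 over the genes outside the extra chromosome, which adds 0.01 to 0.09 to each value, 14 members were higher and 14 lower. The *RPL40* genes encode ubiquitin fused to a ribosomal protein and were looked up after their values were seen. *RPL40A* was lower, at −0.18 ± 0.05 (SE, n = 11, adjusted p = 0.0173), a call lost with the slide as a block and with the array medians set to 0, and *RPL40B* was at −0.01 ± 0.06 (SE, n = 11, adjusted p = 0.893).

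In the disomes 25 of 80 members were called (10 higher and 15 lower), with 39.4% of all 5852 genes called (14.8% higher and 24.6% lower), and the median over the members was 0.01 (all genes −0.03). The share of members called was 31.2%. Both shares fell without disomes I to XI. Without these 7 arrays, which left 5 disomes, 0 of 80 members were called by limma (8 at an unadjusted p under 0.05), beside 0.116% of all genes. With fewer arrays the test has less power, and whether the shares came from those 7 arrays was not tested. In the 8 disomes of the first slide alone 43 of 75 members were called (57.3%), beside 50.4% of all genes. With the slide as a random block 4 kept the call (*RPL30*, *RPP2B*, *RPL7B* and *RPL4A*, 5.00% of the members), beside 5.71% of all genes. With the array medians set to 0 in the same way 19 members were higher and 13 lower (40.0%, all genes 38.4%). The members' share was thus below that of all genes in some of these settings and above it in others.

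*RPL30*, a single-copy gene whose protein is known to repress the splicing of its own transcript, was the highest member in the disomes, with lowest 0.46, median 0.71, highest 0.98 and a mean of 0.69 ± 0.06 (SE, n = 11, adjusted p = 1.87e-05), 1.62-fold and above 0 in 11 of 11 disomes. It averaged 0.79 in disomes I to XI and 0.54 in the 4 measured among disomes XII to XVI (adjusted p = 0.149 in these alone). *RPL24B* was also higher, at 0.55 ± 0.13 (SE, n = 12, adjusted p = 0.00575), as was its paralog *RPL24A* at 0.43 ± 0.12 (SE, n = 9, adjusted p = 0.0178). Of the acidic stalk genes, *RPP2A* was at 0.50 ± 0.14 (SE, n = 9, adjusted p = 0.0152) and *RPP2B* at 0.42 ± 0.10 (SE, n = 11, adjusted p = 0.00538). *RPL24B* averaged 0.88 in disomes I to XI and 0.09 in the others, *RPL24A* 0.82 and 0.12, and *RPP2A* 0.83 and 0.09. *RPP2B* averaged 0.33 and 0.53, with disome XVI at 1.28.

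*RPL41B* and *RPL41A*, which encode the same very short basic peptide, were the lowest members in the disomes. *RPL41B* had lowest −1.57, median −1.22, highest 0.10 and a mean of −0.90 ± 0.17 (SE, n = 12, adjusted p = 0.00128), and *RPL41A* had lowest −1.66, median −1.18, highest 0.21 and a mean of −0.79 ± 0.18 (SE, n = 12, adjusted p = 0.004). The values fell into separate sets by array. *RPL41B* averaged −1.41 in disomes I to XI and −0.18 in disomes XII to XVI, and *RPL41A* −1.33 and −0.03. Disome XII, on the same slide as disomes I to XI, was at 0.10 for *RPL41B* and −0.26 for *RPL41A*. *RPL7B* was at −0.65 ± 0.10 (SE, n = 11, adjusted p = 0.000332), *RPL4A* at −0.48 ± 0.07 (SE, n = 11, adjusted p = 0.00024) and *RPL4B* at −0.42 ± 0.08 (SE, n = 12, adjusted p = 0.00125). *RPL4A* was below 0 in 11 of 11 disomes, with a mean of −0.63 in disomes I to XI and −0.31 in the others. In the same sets *RPL7B* averaged −0.85 and −0.30, and *RPL4B* −0.58 and −0.21.

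The difference between genotypes was taken within each pair of strains with the same extra chromosome (disomes-*ubp6Δ* minus disomes). Of 80 members 19 were called (8 higher and 11 lower in the disomes-*ubp6Δ*), with 34.2% of all 5771 genes called (16.2% higher and 18.0% lower), and the median over the members was −0.07 (all genes −0.02). The share of members called was 23.8%, below that of all genes, but it was above it with the slide as a random block (15.0%, all genes 12.8%) and without disomes I to XI (16 of 80, all genes 10.5%). The strains stood in a different dye in each genotype, and the reference was low in *UBP6* on the disomes-*ubp6Δ* arrays, so these are differences of ratios. *RPL7B* had the highest difference of the members. It had lowest −0.07, median 0.44, highest 1.32 in the disomes-*ubp6Δ*, against lowest −0.98, median −0.78, highest 0.02 in the disomes, and a difference of 1.23 ± 0.16 (SE, n = 11, adjusted p = 0.000163), 2.34-fold and higher in 11 of 11 pairs. Its paralog *RPL7A* had a median of 0.56 in the disomes-*ubp6Δ* and 0.01 in the disomes, a difference of 0.70 ± 0.11 (SE, n = 12, adjusted p = 0.000584). Both were called with the slide as a random block and without disomes I to XI.

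*RPL41A* differed by 0.76 ± 0.18 (SE, n = 12, adjusted p = 0.00604), but the call was lost without disomes I to XI (adjusted p = 0.944) and with the slide as a random block (0.0635). *RPL6B* differed by 0.70 ± 0.14 (SE, n = 11, adjusted p = 0.00244) and was not called without those pairs (adjusted p = 0.192). *RPP1A* had lowest −0.12, median 0.31, highest 0.97 in the disomes-*ubp6Δ*, against lowest −0.51, median −0.20, highest −0.06 in the disomes, and a difference of 0.57 ± 0.11 (SE, n = 12, adjusted p = 0.0016), higher in 12 of 12 pairs.

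On the low side *RPL30* had lowest −0.46, median 0.00, highest 0.21 in the disomes-*ubp6Δ*, against lowest 0.46, median 0.71, highest 0.98 in the disomes. The 2 ranges did not overlap, and the difference was −0.78 ± 0.09 (SE, n = 11, adjusted p = 9.79e-05), lower in 11 of 11 pairs. It was −0.47 without disomes I to XI, which missed the threshold (adjusted p = 0.0509). In the disomes-*ubp6Δ* themselves *RPL30* averaged −0.38 in strains I to VIII and 0.07 in strains IX to XVI. *RPL12B*, which encodes a protein of the stalk base, had lowest −0.62, median −0.29, highest −0.10 in the disomes-*ubp6Δ*, against lowest −0.06, median 0.27, highest 0.54 in the disomes, and differed by −0.59 ± 0.08 (SE, n = 12, adjusted p = 9.99e-05), lower in 12 of 12 pairs. It was called with the slide as a block and without disomes I to XI. *RPP2B* differed by −0.52 ± 0.12 (SE, n = 11, adjusted p = 0.00483), *RPL34A* by −0.48 ± 0.10 (SE, n = 11, adjusted p = 0.0035) and *RPL42B* by −0.44 ± 0.10 (SE, n = 11, adjusted p = 0.00446). *RPL34A* lost the call without disomes I to XI (adjusted p = 0.0785) and *RPL42B* with the slide as a block (0.0592). With the slide as a random block 12 of the 19 kept the call, and without disomes I to XI 16 members were called, 11 of them among the 19.

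**Figure D5:**
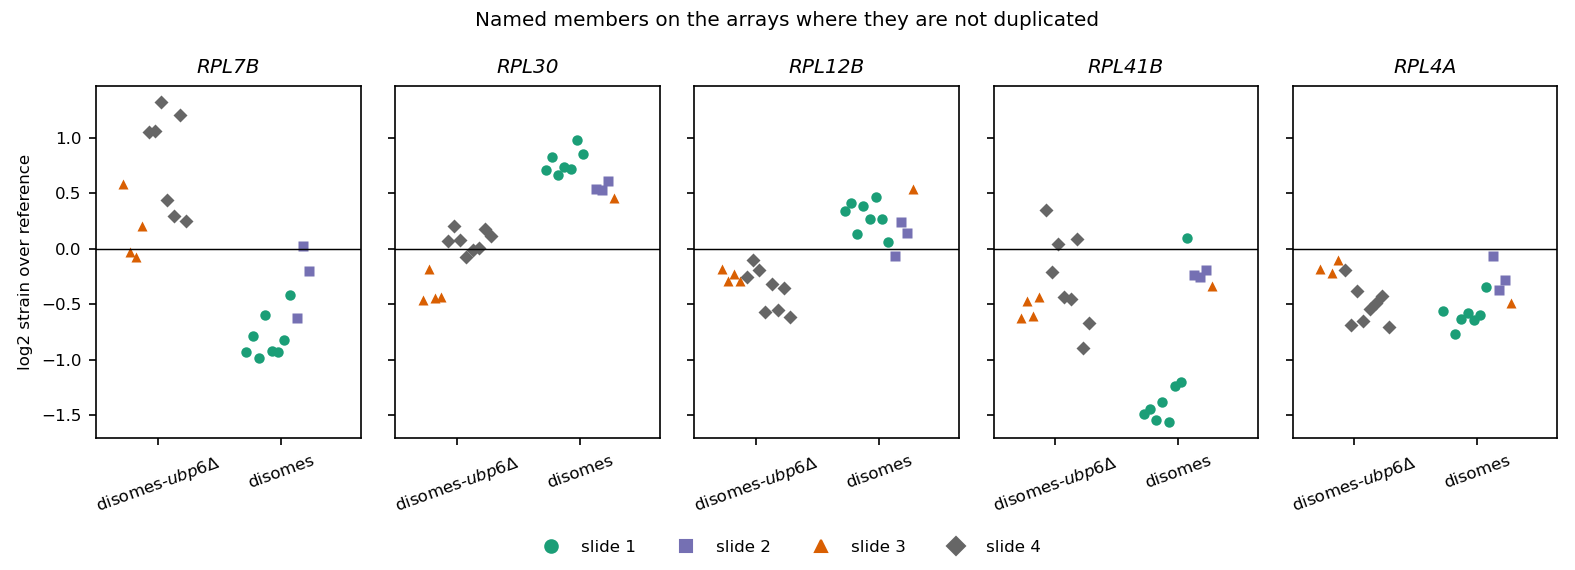
Log2 strain over reference of 5 members in each disome-*ubp6Δ* (left) and disome (right) in which the gene is not duplicated, by slide. *RPL30* and *RPL12B* lie lower in the disomes-*ubp6Δ* and *RPL7B* higher. *RPL41B* lies between −1.57 and −1.20 in the 7 disomes I to XI and between −0.34 and 0.10 in the other disomes.

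Some members were called in the same direction in both genotypes. *RPL24A*, *RPL24B* and *RPP2A* were higher in both genotypes, and *RPL3*, *RPL4A*, *RPL10*, *RPL15B*, *RPL28*, *RPL33A*, *RPL39*, *RPL41B* and *RPL42A* were lower in both. *RPL12B* and *RPL34A* were lower in the disomes-*ubp6Δ* and higher in the disomes, *RPL6B*, *RPL7B*, *RPL11A* and *RPP1A* were higher in the disomes-*ubp6Δ* and lower in the disomes, and 39 members were called in neither. *RPL4A* alone was called in both genotypes with the slide as a block. *RPL15B* was below 0 in 11 of 11 disomes-*ubp6Δ* and 11 of 11 disomes.

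Of the 11 single-copy genes 7 were lower and 0 higher in the disomes-*ubp6Δ* and 4 lower and 1 higher in the disomes, beside the shares of all genes given above. *RPL3* was at −0.32 ± 0.07 (SE, n = 11, adjusted p = 0.00506) in the disomes-*ubp6Δ* and −0.34 ± 0.08 (SE, n = 11, adjusted p = 0.00433) in the disomes, *RPL10* at −0.32 ± 0.09 (SE, n = 11, adjusted p = 0.0185) and −0.41 ± 0.14 (SE, n = 11, adjusted p = 0.0311), *RPL39* at −0.26 ± 0.06 (SE, n = 11, adjusted p = 0.00453) and −0.26 ± 0.05 (SE, n = 11, adjusted p = 0.00232), and *RPL28*, the gene in which cycloheximide resistance arises, at −0.26 ± 0.07 (SE, n = 12, adjusted p = 0.00978) and −0.20 ± 0.05 (SE, n = 12, adjusted p = 0.0084). All 4 calls were lost with the slide as a block in both genotypes (adjusted p = 0.068 to 0.155 in the disomes-*ubp6Δ* and 0.133 to 0.316 in the disomes), and those in the disomes also without disomes I to XI, where *RPL10* was at 0.17. The call of *RPL10* in the disomes was also lost on leaving out any 1 of the 7 disomes I to XI (adjusted p = 0.0595 to 0.0696).

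*RPL32* was lower in the disomes-*ubp6Δ* at −0.29 ± 0.06 (SE, n = 11, adjusted p = 0.00186) and at 0.07 ± 0.07 (SE, n = 10, adjusted p = 0.457) in the disomes, a difference of −0.35 ± 0.07 (SE, n = 10, adjusted p = 0.00314), lower in 10 of 10 pairs. *RPL25*, at −0.19 ± 0.07 (SE, n = 11, adjusted p = 0.036), and *RPL29*, at −0.18 ± 0.06 (SE, n = 12, adjusted p = 0.0435), passed the threshold in the disomes-*ubp6Δ* and lost it with the slide as a block (0.214 and 0.259) and on leaving out any of 8 and any of 9 of the strains (adjusted p up to 0.0766 and 0.0917). *RPL5* was at −0.07 in the disomes-*ubp6Δ* and −0.05 in the disomes, *RPP0* at 0.10 and −0.10, and *RPL38* at 0.26 and −0.13, with no call. The lowest and highest values of *RPL38* were −0.50 and 1.11 in the disomes-*ubp6Δ* and −0.40 and 0.74 in the disomes. Without the pair of strains XVI *RPL38* was called lower in the disomes, at −0.22 (adjusted p = 0.00906), and higher in the difference, at 0.55 (adjusted p = 0.0117).

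Members that meet in the subunit were then read together. Of the 7 stalk genes, *RPP1A* and *RPP1B* were higher in the disomes-*ubp6Δ*, at 0.35 and 0.65, against −0.23 and 0.29 in the disomes. *RPP1A* averaged −0.02 in disomes-*ubp6Δ* I to VIII and 0.53 in disomes-*ubp6Δ* IX to XVI, and *RPP1B* 0.63 and 0.66. *RPP2A* was at 0.48 in the disomes-*ubp6Δ* and 0.50 in the disomes, higher in both, while *RPP2B* was at −0.12 and 0.42 and called only in the disomes. At the stalk base *RPL12A* was at −0.09 and −0.02 and *RPP0* at 0.10 and −0.10, with no call, unlike *RPL12B* above. With the slide as a block the calls of *RPP1B* and *RPL12B* in the disomes-*ubp6Δ* and of *RPP2B* in the disomes were kept and the other stalk calls were lost. When duplicated, *RPP2A* responded by 0.84 ± 0.30 and *RPL12A* by 0.94 ± 0.15, and *RPP0* by −0.04 ± 0.16.

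Rpl11 binds the 5S ribosomal RNA together with Rpl5. *RPL11A* was higher in the disomes-*ubp6Δ*, at 0.30 ± 0.07 (SE, n = 11, adjusted p = 0.00626), and lower in the disomes, at −0.23 ± 0.07 (SE, n = 11, adjusted p = 0.0166), a difference of 0.53 ± 0.09 (SE, n = 11, adjusted p = 0.000915). *RPL11B* was at 0.34 ± 0.09 (SE, n = 12, adjusted p = 0.00802) in the disomes-*ubp6Δ* and 0.30 ± 0.11 (SE, n = 12, adjusted p = 0.0516) in the disomes, and its difference of 0.04 was not called. Over the arrays the 2 copies correlated at r = −0.04 (n = 22 arrays). *RPL11A* averaged 0.30 in disomes-*ubp6Δ* I to VIII and 0.30 in disomes-*ubp6Δ* IX to XVI, and −0.33 in disomes I to XI and −0.05 in disomes XII to XVI. Neither copy was called in either genotype with the slide as a block, and the difference of *RPL11A* was still called, which it was not without disomes I to XI.

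The 25 members on chromosomes IV, VI and VII kept their usual copy number in all 24 strains, so that their values came from every array on which they were measured. Among them were *RPL7A*, *RPL41A* and *RPP1A* on the high side of the difference and *RPL30*, *RPL12B* and *RPP2B* on the low side. Over all members outside the extra chromosome, the median of an array lay between −0.27 (disome-*ubp6Δ* XII) and 0.10 (disome-*ubp6Δ* I), and between −0.19 (disome XV) and 0.25 (disome XVI). The small-subunit ribosomal protein genes on the same 4 arrays had medians of −0.44, 0.12, −0.07 and 0.27.

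Other genes of the pathway were counted in the same way. Of all genes, 13.9% were called higher and 21.2% lower in the disomes-*ubp6Δ*, and 14.8% and 24.6% in the disomes. In the difference 16.2% of all genes were called higher and 18.0% lower. Of all duplicated genes 79.4% were called above the other strains, 3.48% were called different from 1 and 13.8% responded by less than 0.5. Of 57 large-subunit assembly factors 1 was higher and 26 lower in the disomes-*ubp6Δ* (median −0.19), 1 higher and 20 lower in the disomes (median −0.15), and 4 higher and 13 lower in the difference. When duplicated, 40 of 41 assembly factors were called above the other strains, with a median response of 0.92, 0 of 41 were called different from 1, and 1 of 41 responded by less than 0.5 (2.44%). Of 56 small-subunit ribosomal protein genes 5 were higher and 18 lower in the disomes-*ubp6Δ*, 11 higher and 12 lower in the disomes, and 6 higher and 13 lower in the difference. When duplicated, 34 of 44 were called above the other strains (77.3%, median 0.87), near the share of all duplicated genes. Of 15 regulators of ribosomal protein genes 4 were higher and 2 lower in the disomes-*ubp6Δ*, and 2 higher and 5 lower in the disomes. Of 7 enzymes that modify large-subunit proteins 0 were higher and 4 lower in the disomes-*ubp6Δ*, and 1 higher and 3 lower in the disomes. *RKM3*, a methyltransferase of Rpl42, was lower in both, at −0.50 and −0.47.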

How the data were processed

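Steady-state mRNA was measured in 24 yeast strains (12 disomes-*ubp6Δ* and 12 disomes), 1 dual-colour array each. The authors read the images with Agilent Feature Extraction; the deposited intensity values are processed signals per spot and dye, from which their software subtracted background and in which it normalized the dyes. The deposited log10 ratios of Cy5 over Cy3 and the deposited flags of each spot came from the same software. The authors' deposited value table is on a log2 scale, with centring and direction unstated. On the disomes-*ubp6Δ* arrays it correlated with the sign-turned values at r = 0.989 to 0.999, so it ran the same way. It was used only as an alternative. Here log2 of processed Cy5 over Cy3 was taken for spots well above background in at least 1 dye, control and outlier spots were left out, and spots were averaged by probe (60 bases, 2 spots each) and then by gene. The median processed signal of an array was 739 to 2381 for the strains of the disomes and 835 to 1285 for those of the disomes-*ubp6Δ*. The number of arrays limits the precision.

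Values were tested with limma 3.58.1 (R 4.3.3) on all genes with Benjamini-Hochberg adjustment and a threshold of 0.05: against 0 in each genotype over at least 6 strains, as differences within pairs of strains with the same extra chromosome, and, for the copy response, as the 2 strains that carry the extra copy against all others with an intercept for each genotype. Genes on the extra chromosome of a strain were left out there in the first 3 tests, and unduplicated paralogs were tested like the copy response, on all genes outside that chromosome. SE is the moderated standard error. Numbers pair the strains because the same number marks the same extra chromosome; deviations from the genotype mean correlated at −0.05 to 0.64 (median 0.32) for the same number, over 0.1 in 11 of 12, and at a median of −0.04 for different numbers. The fits were tested on simulated data with noise independent between arrays. That test cannot show how they behave where the arrays of a slide correlate. Alternatives were other filters, background correction, centring, the deposited table, the slide as a block, single slides, the label's sign, no pairing and leaving out each pair.

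The members, gene lists and tests were chosen with earlier results of these data known. Named genes are the 5 highest and 5 lowest called members of each comparison (at least 8 strains or pairs, 75% in 1 direction), the 5 highest and 5 lowest copy responses and unduplicated paralogs, and all single-copy members. The counts include 1 pair of paralogs whose values are not reported here. Gene order for neighbours came from the RefSeq annotation, whose build differs from that of the array, and no coordinates were used.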

Additional observations from a re-analysis of the deposited data

Results flagged for a closer look

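For 19 members the log2 ratio to the reference differed between the genotypes by a test of the difference itself (disomes-*ubp6Δ* minus disomes, limma, adjusted p under 0.05), and 34.2% of all genes did so. The differences were 1.23 for *RPL7B*, 0.76 for *RPL41A*, 0.70 for *RPL7A*, 0.70 for *RPL6B*, 0.57 for *RPP1A*, 0.53 for *RPL11A*, 0.38 for *RPP1B* and 0.29 for *RPL14A*. On the low side they were −0.78 for *RPL30*, −0.59 for *RPL12B*, −0.52 for *RPP2B*, −0.48 for *RPL34A*, −0.44 for *RPL42B*, −0.40 for *RPL21B*, −0.38 for *RPL42A*, −0.36 for *RPL31A*, −0.35 for *RPL32*, −0.33 for *RPL16A* and −0.30 for *RPL9A*. The dye of the strain and the *UBP6* signal of the reference changed with the genotype and cannot be told apart from it. Each slide held 1 genotype, except the third, which held disome XVI and 4 disomes-*ubp6Δ*, and with the slide as a random block 12 of the 19 were called. With disomes I to XI and their partners left out, *RPL12B*, *RPL16A*, *RPL31A*, *RPL32*, *RPL42A*, *RPL42B*, *RPL7A*, *RPL7B*, *RPL9A*, *RPP1A* and *RPP2B* were still called.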

How the results depend on the processing

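Of 2271 alternative values for 97 results on named members, 2055 kept direction and side of the threshold, 108 lost the call, 27 gained it, 57 moved by more than their error without a call and 24 turned. Taking the sign as labelled on the disomes-*ubp6Δ* arrays turned 34 calls there (21 higher and 13 lower) and gave 27 in the difference (16 higher and 11 lower). In the disomes-*ubp6Δ* it gave 0.32 for *RPL10*, −0.49 for *RPL14A*, 0.48 for *RPL15B*, −0.50 for *RPL24B*, 0.19 for *RPL25*, 0.26 for *RPL28*, 0.18 for *RPL29*, 0.32 for *RPL3*, 0.29 for *RPL32*, 0.49 for *RPL37B*, 0.26 for *RPL39*, 0.57 for *RPL42A*, 0.54 for *RPL42B*, 0.41 for *RPL4A*, −0.60 for *RPL7A*, −0.58 for *RPL7B* and −0.65 for *RPP1B*. In the difference it gave 0.064 for *RPL12B*, 0.22 for *RPL32*, 0.63 for *RPL42B*, −0.18 for *RPL6B*, −0.49 for *RPL7A* and −0.12 for *RPP1A*. *RPL10* in the disomes was at 0.17 without disomes I to XI.

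With the slide as a random block the calls numbered 11 in the disomes-*ubp6Δ*, 4 in the disomes and 12 in the difference. Keeping the duplicated values gave 22 calls in the disomes-*ubp6Δ* (27.5%, all genes 22.7%). The first slide alone gave 43 calls in the disomes, and without disomes I to XI there were 0. The pairs I to VIII gave 35 calls among 79 members in the difference (44.3%, all genes 49.6%). The pairs IX to XII gave 6 among 70 (8.57%, all genes 8.49%). Responses different from 1 numbered 0 in the disomes-*ubp6Δ* alone, 2 in the disomes alone (1 above and 1 below 1) and 3 without disomes I to XI, with fewer arrays in each. With the other background correction and loess normalization they numbered 8 (7 below and 1 above 1). Without replicate block the difference had 19 calls (6 higher and 13 lower, 23.8%, all genes 25.1%), 17 of them shared with the paired fit. Centring on non-duplicated genes gave 14 higher and 14 lower in the disomes-*ubp6Δ* and 19 higher and 13 lower in the disomes. Leaving out 1 pair of strains gave 29 to 34 calls in the disomes-*ubp6Δ*, 23 to 31 in the disomes, 18 to 25 in the difference, 37 to 44 copy responses above 0, 4 to 7 different from 1 and 1 to 3 paralogs, the 1 being without strains XII, where *RPL8A* and *RPL22B* could not be tested. Some settings had fewer arrays, and the cause of the changes was not tested. The signal of the members lay well above background on all arrays.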

Other observations

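*RPL15A* had separate values by slide. Its log2 ratio was 2.24, 0.29, 1.82 and 1.35 in disomes-*ubp6Δ* I, II, V and VIII and 2.39 in disome XVI, all on 1 slide. In disomes-*ubp6Δ* IX to XVI, on another slide, it averaged −0.85, and in disomes I to XI −0.29. Its paralog *RPL15B* averaged −0.47 in disomes-*ubp6Δ* I to VIII, −0.48 in disomes-*ubp6Δ* IX to XVI and −0.43 in disomes I to XI. The SE of the *RPL15A* copy response, 0.72, was the largest of the 55.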
